A study of Homo sapiens with 6 samples.

Results

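The genes of DEC1 (BHLHE40), DEC2 (BHLHE41) and the core circadian clock (PER1, PER2, PER3, CRY1, CRY2, NR1D1, NR1D2 and ARNTL) were followed in BT474 cells that overexpressed either of the 2 variants of the long noncoding RNA NR2F1-AS1. Every probe annotated with one of these 10 of 43317 gene names was taken, which gave 15 of 58201 probes, and each probe was kept apart. The genes were chosen from earlier results of these same arrays, so the differences between populations are given below as a description, and no p-value is drawn for a member. Counts of members past the thresholds of the fit across all probes are printed beside the share of all probes, and nothing is read from them. Of the 15 probes, 14 passed the filter on dim signal, which asks for a signal well above background on both arrays of 1 population or more, and entered the fit across all probes.

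BT474 is a breast cancer cell line that expresses the estrogen receptor and HER2. RNA was hybridized to one-color Agilent arrays, 2 arrays of each population. Control cells (MOCK in the labels) carried empty pcDNA3.1, BT474-Var1 cells carried pcDNA3.1 with NR2F1-AS1 variant 1, the long variant, and BT474-Var4 cells carried pcDNA3.1 with variant 4, the short one. All cells were grown in RPMI-1640 with heat-inactivated FBS. All populations had passed through antibiotic selection and were then kept without antibiotic. The cells with either variant had dwindled to few before colonies grew, so that the variant and the choice of surviving cells cannot be told apart. The methods name different backbones, pcDNA3.1/Hygro(+) for variant 1 and pcDNA3.1-P2A-eGFP for variant 4, so that in every comparison of BT474-Var4 with BT474-Var1 the variant and the vector cannot be told apart. Either empty backbone served as a control in the study, and the label does not settle which the arrayed Control cells carried. Nothing in the labels says that arrays A and B of a population came from separate cultures, so errors and p-values measure the spread between these arrays, which may be technical.

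The circadian clock is a loop of transcription and repression that runs in most cells. CLOCK and ARNTL (BMAL1) bind E-box sequences as a pair and activate the PER, CRY and REV-ERB genes, and the PER and CRY proteins then repress that pair. The REV-ERB receptors (NR1D1 and NR1D2) repress ARNTL, while the ROR receptors activate it through the same elements. DEC1 and DEC2 are basic helix-loop-helix repressors that bind E-boxes themselves, and DEC1 is also known as a gene induced by hypoxia and DEC2 as a gene tied to the dormancy of disseminated tumor cells. The study's methods do not give the time of harvest or of the last change of medium for the arrayed cells. The phase of the clock was not tested.

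The promoters of the 3 members with the widest differences, each with an E-box, are shown first, and beside them that of CIART, whose 3 E-boxes were the most in any window of these genes and their partners. The stretches run from 250 bases to 1 base before the start of the transcript in RefSeq (GRCh38.p14), read 5′ to 3′ along the gene. They are those of BHLHE40 (chr3:4979187-4979436, plus strand), BHLHE41 (chr12:26125038-26125287, minus strand), PER1 (chr17:8152405-8152654, minus strand) and of the clock repressor CIART, described below, chr1:150282304-150282553 (plus strand). The letters CACGTG, the E-box, are in capitals.
BHLHE40: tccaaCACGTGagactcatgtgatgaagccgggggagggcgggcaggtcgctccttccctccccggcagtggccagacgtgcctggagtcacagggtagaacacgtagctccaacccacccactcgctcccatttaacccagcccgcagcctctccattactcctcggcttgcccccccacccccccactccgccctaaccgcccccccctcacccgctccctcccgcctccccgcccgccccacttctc
BHLHE41: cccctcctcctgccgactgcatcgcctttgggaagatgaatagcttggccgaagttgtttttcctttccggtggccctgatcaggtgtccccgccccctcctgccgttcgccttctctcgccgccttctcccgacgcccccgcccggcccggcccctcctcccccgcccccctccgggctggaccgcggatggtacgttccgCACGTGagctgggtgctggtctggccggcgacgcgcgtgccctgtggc
PER1: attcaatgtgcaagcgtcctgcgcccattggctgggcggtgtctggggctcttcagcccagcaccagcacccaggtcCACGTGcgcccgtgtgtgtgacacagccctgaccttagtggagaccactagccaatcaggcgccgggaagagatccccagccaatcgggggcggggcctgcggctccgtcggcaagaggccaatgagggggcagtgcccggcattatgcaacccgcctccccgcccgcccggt
CIART: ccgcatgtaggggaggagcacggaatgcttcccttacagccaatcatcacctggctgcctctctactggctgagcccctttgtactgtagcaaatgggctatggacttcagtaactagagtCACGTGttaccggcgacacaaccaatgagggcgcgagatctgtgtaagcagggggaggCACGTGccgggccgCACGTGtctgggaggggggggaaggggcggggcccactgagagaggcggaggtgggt
The E-box began 245 bases before the start in BHLHE40, 48 bases before it in BHLHE41 and 173 bases before it in PER1. CIART held 3 E-boxes, which began 129, 71 and 57 bases before the start.

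In windows of 300 bases, from 250 before to 50 after each start, CACGTG was present in 7.26% of 35116 RefSeq windows. All 10 genes had at least 1 window, ARNTL under its current symbol BMAL1, and 4 of them held CACGTG, namely BHLHE40, BHLHE41, PER1 and NR1D2, in 4 of their 14 windows. Of the partner genes described below, 17 had windows, and 3 of them (TEF, CIART and TIMELESS) held CACGTG, in 4 of 24 windows, while DBP and HLF held none. A gene with more than 1 window had more than 1 chance of a match. The related letters CACGTT, an E-box-like element, were in 5.34% of all windows and in those of PER2, CRY1, CRY2 and NR1D1. The D-box TTATGTAA, bound by DBP, HLF, TEF and NFIL3, was in 0.886% of all windows and in those of PER3 and NR1D2. The core AGGTCA of the ROR and REV-ERB element was in 13.8% of all windows and in those of PER1, CRY2 and ARNTL. Both strands were searched, CACGTG reads the same on both, and no 2 matches in the windows of these genes overlapped. A match is a description of the letters and was not tested as a binding site.

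**Figure D1:**
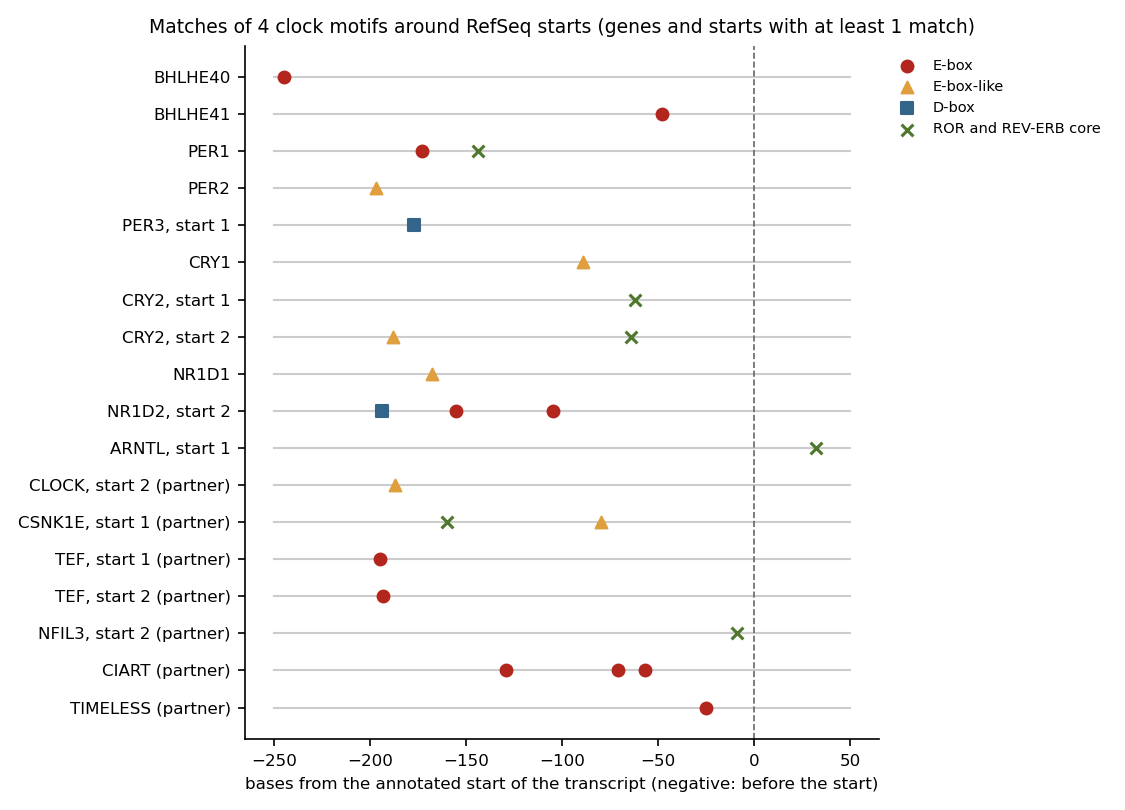
Positions of 4 clock motifs in windows around RefSeq starts, for the clock and DEC genes and their partner genes with at least 1 match. The x axis is the distance of a match's first base from the annotated start, in bases, each grey line is 1 window, and the E-boxes of BHLHE40, BHLHE41 and PER1 lie 245, 48 and 173 bases before their starts.

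The 3 populations could be told apart by the transfected RNA. At the NR2F1-AS1 probe A_19_P00320140 the BT474-Var1 arrays read -0.42 and -0.51, while neither the Control nor the BT474-Var4 arrays were above background, a difference of at least 15.1-fold from Control. At the probe A_24_P51080 the BT474-Var4 arrays read 1.67 and 1.50, and neither BT474-Var1 array and 1 Control array were above background. The luminal markers ESR1, ERBB2, GATA3, KRT8, KRT18, KRT19 and EPCAM were above background on all 6 arrays. Of the markers of other cells, COL1A2 and 1 probe of PECAM1 and 2 of PTPRC were above background on none, whereas 2 of the 5 probes of PTPRC and the probe of COL1A1, which lay 1.03 log2 units above Control in BT474-Var4, were above background on all 6. Between 47.6% and 57.5% of the probes were above background on an array, with the lowest share on BT474-Var4 array B. All arrays lay on 1 slide, the BT474-Var1 arrays in another column than the other 4, so that slide column and BT474-Var1 cannot be told apart. The Control arrays lay in rows 1 and 2 and the arrays of both variants in rows 3 and 4. In every comparison with Control, slide row and the variant therefore cannot be told apart.

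Levels are given as log2 intensity relative to the array's 75th percentile, so that 0 is the percentile and a step of 1 is 2-fold. They compare arrays for 1 probe and do not compare 1 gene with another. A probe was called when it differed by at least 2-fold with an adjusted p under 0.05 by limma over the 31858 tested probes.

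BHLHE40 and BHLHE41 were both higher in the cells with either variant than in Control, but in different proportions. BHLHE40, whose protein DEC1 represses E-box genes, was read by A_24_P268676 (hg19 chr3:5026260-5026319). It read -3.60 and -3.55 in Control, -2.73 and -2.92 in BT474-Var4 and -0.43 and -0.24 in BT474-Var1. The 3 populations did not overlap, and BT474-Var4 lay much nearer to Control than to BT474-Var1. The difference from Control was 3.24 log2 units (SE 0.10) in BT474-Var1, 9.45-fold, and 0.75 (SE 0.10) in BT474-Var4, 1.68-fold. BT474-Var4 lay 5.61-fold below BT474-Var1.

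BHLHE41, which encodes the DEC2 repressor, was read by A_23_P139500 (hg19 chr12:26273632-26273691). Its levels were -1.63 and -1.93 in Control, 0.47 and 0.38 in BT474-Var4 and 0.65 and 0.83 in BT474-Var1. Both variants stood clear of Control, with the BT474-Var4 arrays just under the BT474-Var1 arrays. The difference from Control was 2.52 log2 units (SE 0.13), 5.74-fold, in BT474-Var1 and 2.20 (SE 0.13), 4.60-fold, in BT474-Var4. BT474-Var4 minus BT474-Var1 was -0.32 (SE 0.13), a difference of the size of the spread between the 2 Control arrays. Thus the gap between the variants was 2.49 log2 units for BHLHE40 and 0.32 for BHLHE41.

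**Figure D2:**
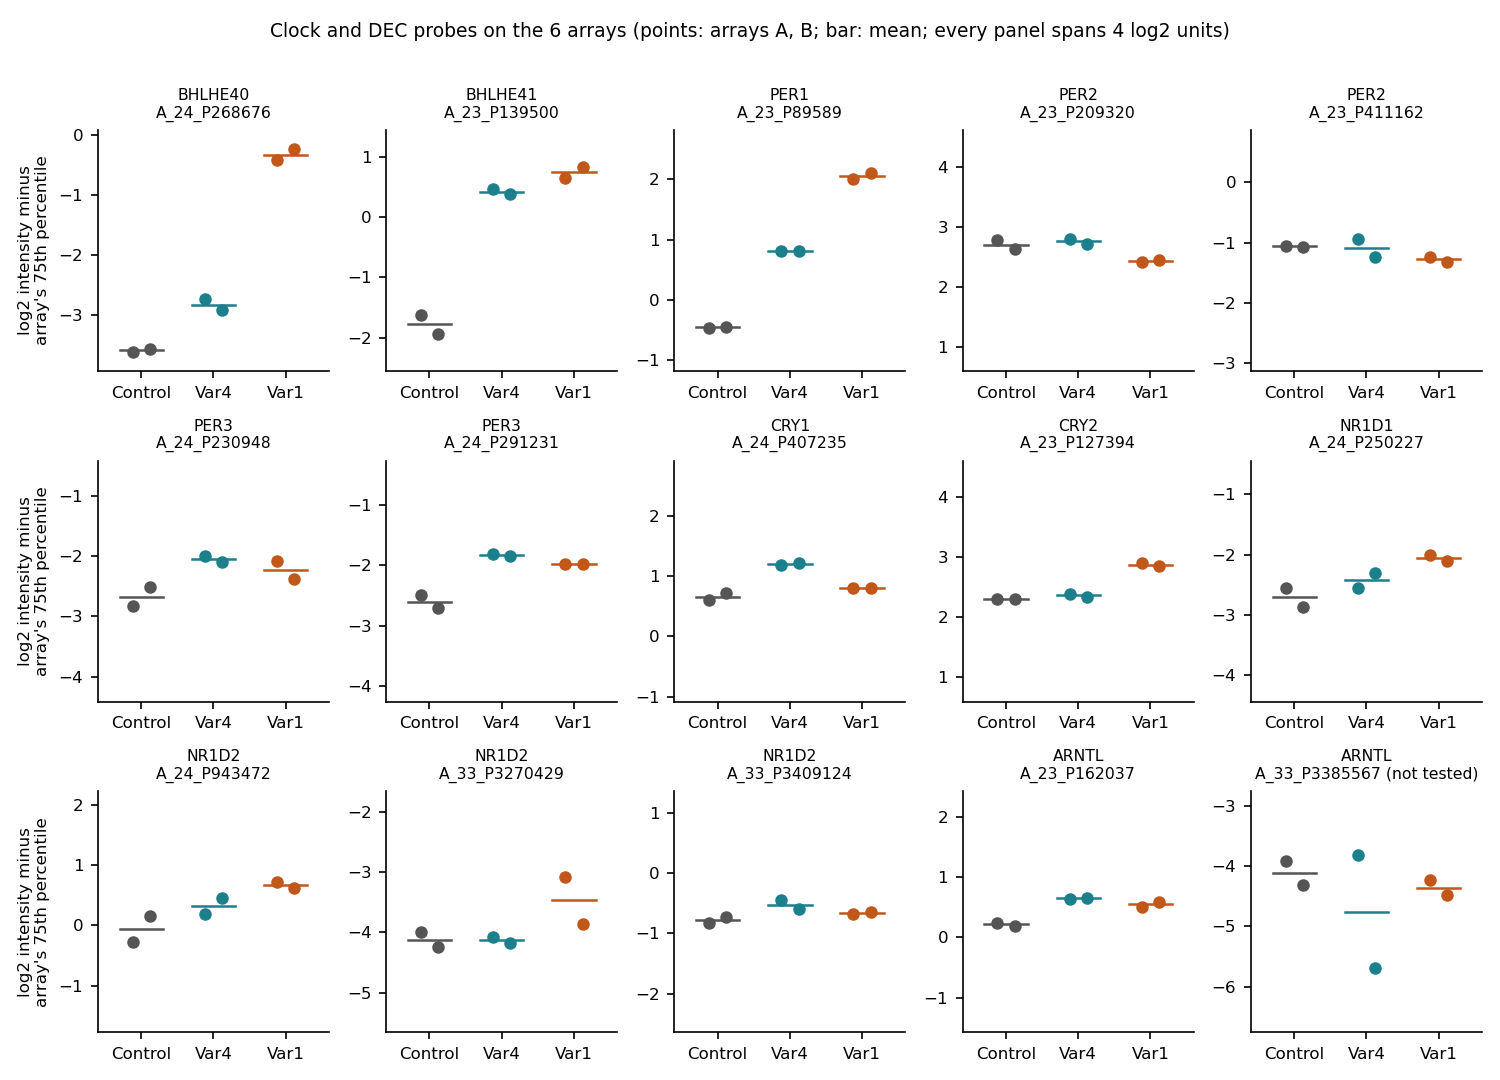
Level of each of the 15 clock and DEC probes on the 6 arrays, as log2 intensity minus the array's 75th percentile, with points for arrays A and B of each population and a bar at their mean. Every panel spans the same number of log2 units, and BHLHE40, BHLHE41 and PER1 stand out from the nearly level panels of PER2, CRY1 and the NR1D2 probe A_33_P3409124.

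The size of these differences depended on how background was taken off the dim signal. With normexp background correction, which compresses dim values, BHLHE40 exceeded Control 2.31-fold in BT474-Var1 and 1.12-fold in BT474-Var4. For BHLHE41 the folds were 2.80 and 2.42. BT474-Var4 minus BT474-Var1 was then -1.04 log2 units for BHLHE40 and -0.21 for BHLHE41. The order of the populations was the same for both genes. The order of the genes in BT474-Var1 was not, since BHLHE41 then had the larger fold over Control.

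The 3 period genes, whose proteins repress CLOCK and ARNTL, differed in 3 ways. PER1 was read by A_23_P89589 (hg19 chr17:8044267-8044326). It read -0.46 and -0.44 in Control, 0.81 and 0.82 in BT474-Var4 and 2.0 and 2.11 in BT474-Var1. The populations lay in nearly even steps without overlap. PER1 exceeded its Control level by 2.51 log2 units (SE 0.06), 5.68-fold, in BT474-Var1 and by 1.27 (SE 0.06), 2.41-fold, in BT474-Var4. BT474-Var4 lay 2.36-fold below BT474-Var1. With normexp background correction the folds over Control were 3.72 and 1.84, so that the second fell under 2-fold.

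PER2 was close to level. Its brighter probe A_23_P209320 read 2.78 and 2.63 in Control, 2.80 and 2.71 in BT474-Var4 and 2.42 and 2.44 in BT474-Var1. Here Control and BT474-Var4 overlapped and BT474-Var1 lay below both, by 0.28 log2 units (SE 0.07) from Control. The other probe, A_23_P411162, read -1.06 and -1.07 in Control, -0.94 and -1.24 in BT474-Var4 and -1.24 and -1.32 in BT474-Var1. BT474-Var1 was again lowest on average, but it touched 1 BT474-Var4 array.

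PER3 was higher in both variants at both of its probes. A_24_P230948 read -2.84 and -2.52 in Control, -2.0 and -2.09 in BT474-Var4 and -2.09 and -2.39 in BT474-Var1, with overlap between the variants. A_24_P291231 read -2.49 and -2.71 in Control, -1.81 and -1.85 in BT474-Var4 and -1.97 on both BT474-Var1 arrays. The second probe differed from Control by 0.63 log2 units (SE 0.09) in BT474-Var1 and 0.78 (SE 0.09) in BT474-Var4, under 2-fold in each. Unlike BHLHE40 and PER1, PER3 was not higher in BT474-Var1 than in BT474-Var4.

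The cryptochromes, the partners of the PER proteins in repression, showed opposite preferences. CRY1 (A_24_P407235) read 0.61 and 0.71 in Control, 1.19 and 1.23 in BT474-Var4 and 0.80 and 0.81 in BT474-Var1. CRY2 (A_23_P127394) read 2.30 on both Control arrays, 2.38 and 2.34 in BT474-Var4 and 2.89 and 2.85 in BT474-Var1. CRY1 therefore stood highest in BT474-Var4, 0.55 log2 units (SE 0.06) above Control, and CRY2 highest in BT474-Var1, 0.57 (SE 0.05) above Control. The remaining difference from Control was 0.14 (SE 0.06) for CRY1 in BT474-Var1 and 0.06 (SE 0.05) for CRY2 in BT474-Var4.

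The REV-ERB genes, which encode the receptors that repress ARNTL, were at most 1.66-fold above Control. NR1D1 (A_24_P250227) read -2.55 and -2.87 in Control, -2.55 and -2.30 in BT474-Var4 and -2.01 and -2.11 in BT474-Var1. The BT474-Var4 arrays reached down to the upper Control array, and the BT474-Var1 arrays lay above all others, 0.65 log2 units (SE 0.15) above Control. NR1D2 had 3 probes that did not move alike. A_24_P943472 read -0.28 and 0.15 in Control, 0.18 and 0.46 in BT474-Var4 and 0.72 and 0.62 in BT474-Var1, a difference of 0.73 (SE 0.18) between BT474-Var1 and Control. A_33_P3409124 read -0.83 and -0.73 in Control, -0.45 and -0.59 in BT474-Var4 and -0.67 and -0.64 in BT474-Var1, with BT474-Var4 on top. The third, A_33_P3270429, was near background, below it on 1 BT474-Var4 array, and its BT474-Var1 arrays differed by more than any other pair of a tested probe in the set, at -3.07 and -3.86.

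ARNTL, the activator of the loop, was slightly higher with both variants. A_23_P162037 read 0.24 and 0.19 in Control, 0.64 and 0.65 in BT474-Var4 and 0.50 and 0.59 in BT474-Var1. The variants lay 0.43 (BT474-Var4) and 0.33 (BT474-Var1) log2 units above Control (SE 0.06 each), a 1.35-fold and a 1.26-fold difference. The second ARNTL probe, A_33_P3385567, was above background on 1 Control and 1 BT474-Var4 array only and was not tested.

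Across the 14 tested probes, 3 were called higher in BT474-Var1 than in Control (BHLHE40, BHLHE41 and PER1), where 2.78% of all tested probes were called higher. In BT474-Var4 against Control, 2 were called higher (BHLHE41 and PER1), against 1.60% of all tested probes. Between the variants, BHLHE40 and PER1 were called lower in BT474-Var4, against 4.60% of all. The genes were chosen on these contrasts, so nothing is read from these shares. The median difference from Control over the 14 probes was 0.60 log2 units in BT474-Var1 and 0.40 in BT474-Var4, beside -0.04 and -0.08 over all tested probes. In each of the comparisons with Control, which share the Control arrays, 12 of the 14 probes were above 0. Of all tested probes, 45.0% were above 0 in BT474-Var1 and 39.5% in BT474-Var4. PER2, PER3 and NR1D2 had several probes each in this count, and nothing is read from it.

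Without the 2-fold minimum, at an adjusted p under 0.05 by limma, 8 of the 14 probes were higher and 1, of PER2, lower in BT474-Var1 than in Control, beside 14.1% and 20.3% of all tested probes. In BT474-Var4, 7 were higher and 0 lower (also 0 at an unadjusted p under 0.05), beside 9.87% and 14.3% of all. Between the variants, a PER2 probe and CRY1 were higher in BT474-Var4 and BHLHE40, PER1 and CRY2 lower, beside 20.4% and 20.8% of all. Many of these passes hung on the processing. With no filter on dim probes, only those of BHLHE40, BHLHE41, PER1 and CRY2 remained in BT474-Var1 against Control. In BT474-Var4 against Control only BHLHE41 and PER1 remained, and between the variants only BHLHE40, PER1 and CRY2. These counts come from the values that the genes were chosen on, so nothing is read from them either.

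**Figure D3:**
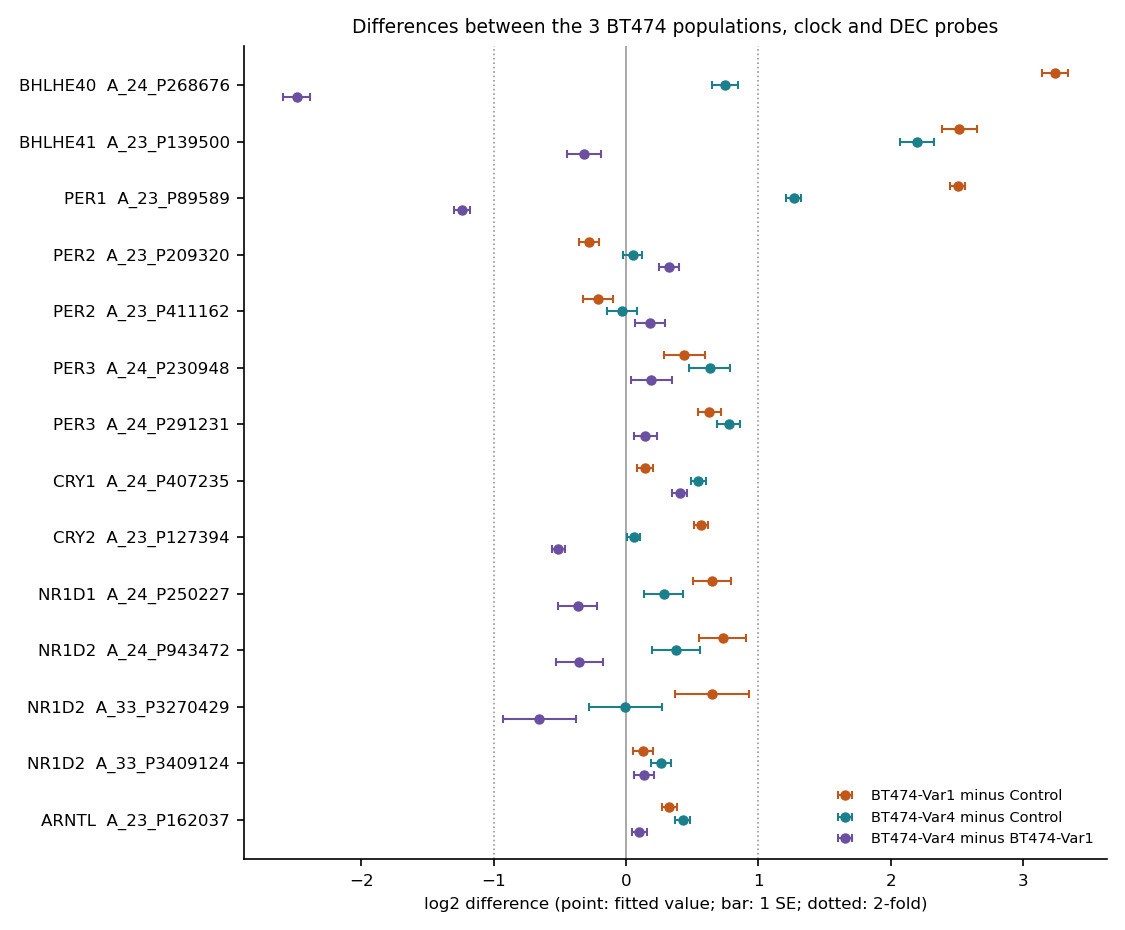
Fitted log2 differences between the 3 populations for the 14 tested clock and DEC probes, with bars of 1 SE and dotted lines at 2-fold. BHLHE40 and PER1 have a wide gap between the variants (-2.49 and -1.24), BHLHE41 has a narrow one (-0.32), and all other probes stay within 2-fold of Control.

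The partner genes of the clock were read for the same arrays, 20 of a list of 21 having a probe (CSNK1E had none under its symbol), with 1 probe a gene, the tested probe of highest mean level. Of these, 18 genes were tested, while FBXL21 and USP2 were too dim. In BT474-Var1 against Control, 6 of the 18 rose and 3 fell, 3 of the rises being called at 2-fold and 0 with normexp background correction. In BT474-Var4 against Control, 3 rose and 1 fell, with 1 rise called. Between the variants 0 were called at 2-fold by limma, while 2 were higher and 5 lower in BT474-Var4 at an adjusted p under 0.05, the same numbers as at an unadjusted p under 0.05. The rises in BT474-Var1 and the 5 lower genes include CIART, which passed the filter on dim signal only through BT474-Var1. The median difference of the 18 genes was 0.02 log2 units in BT474-Var1 and 0.04 in BT474-Var4, with 9 above 0 in each. Of all tested probes, 45.0% and 39.5% were above 0. The called shares of all tested probes are those given above. The partner list was chosen with earlier results of these data known, so nothing is read from its counts. For the same reason, the adjusted p-values of single partner genes below are given as a description.

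In BT474-Var1 the partner genes with the largest rises were outputs of the clock, among them the PAR bZIP factors DBP and HLF, which bind D-boxes. In BT474-Var4 HLF had the largest rise, and the activator RORA came next, above DBP. DBP read -0.19 and -0.32 in Control, 0.24 and 0.38 in BT474-Var4 and 1.07 and 1.27 in BT474-Var1. HLF read -1.23 and -1.15 in Control, -0.12 and -0.21 in BT474-Var4 and 0.21 and 0.17 in BT474-Var1. Neither gene's populations overlapped, and both genes rose in either variant. In BT474-Var1 DBP rose by 1.42 log2 units (SE 0.10, adjusted p = 0.0038 by limma), and in BT474-Var4 by 0.57 (SE 0.10, adjusted p = 0.024). HLF rose by 1.38 (SE 0.06, adjusted p = 0.0027) and by 1.03 (SE 0.06, adjusted p = 0.0037). DBP was also lower in BT474-Var4 than in BT474-Var1, by 0.86 (SE 0.10, adjusted p = 0.0055), as PER1 was, and HLF by 0.35 (SE 0.06, adjusted p = 0.015). With normexp background correction neither gene reached 2-fold in BT474-Var1, at 0.95 for DBP and 0.80 for HLF. The call of HLF in BT474-Var4 sits at the 2-fold line, with a difference of 0.98 without Control array A or BT474-Var4 array A and of 0.60 with normexp background correction. In BT474-Var1 TEF, the third factor of the kind, rose by 0.57 (SE 0.09, adjusted p = 0.015), and in BT474-Var4 its difference was 0.21 (adjusted p = 0.18). NFIL3, which represses at D-boxes, had differences of -0.01 and 0.11 (adjusted p = 0.89 and 0.23).

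CIART, a repressor of CLOCK and ARNTL whose promoter is printed above, was not well above background on either Control array. It read -2.87 and -2.67 in BT474-Var1, at least 2.77-fold above Control (adjusted p = 0.0091 by limma). CIART passed the filter on dim signal only through BT474-Var1. The filter thus selected it for signal in that population, and nothing is read from this p-value or from its pass between the variants. In BT474-Var4 CIART read -3.71 and -3.65, was above background on 1 array and did not pass against Control (adjusted p = 0.11). With normexp background correction the difference of CIART between BT474-Var1 and Control was 0.24 and was no longer called.

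Among the activators, RORA, a receptor that opposes the REV-ERBs, read -0.90 and -0.95 in Control, -0.31 and -0.24 in BT474-Var4 and -0.66 and -0.70 in BT474-Var1. It rose by 0.65 log2 units in BT474-Var4 (SE 0.06, adjusted p = 0.0058 by limma) against 0.25 in BT474-Var1 (SE 0.06, adjusted p = 0.032). The difference between the variants was tested as well, and RORA was 0.41 higher (SE 0.06, adjusted p = 0.0079) in BT474-Var4. CLOCK, the partner of ARNTL, had differences of -0.05 and -0.09 from Control (adjusted p = 0.68 and 0.47), and NPAS2, ARNTL2 and RORB did not pass in any comparison.

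Of the kinases and ubiquitin ligases that act on PER and CRY proteins, GSK3B alone passed, falling by 0.42 log2 units (SE 0.06, adjusted p = 0.0090) in BT474-Var1, while CSNK1D, BTRC and FBXW11 did not pass in any comparison. TIMELESS, a replication fork protein tied to the clock, fell in both populations, in BT474-Var1 by 0.54 (SE 0.06, adjusted p = 0.0058) and in BT474-Var4 by 0.50 (SE 0.06, adjusted p = 0.0096). In BT474-Var1 its binding partner TIPIN fell by 0.31 (SE 0.07, adjusted p = 0.034), and in BT474-Var4 its difference was -0.20 (adjusted p = 0.12). WEE1, a cell cycle kinase under clock control, was 0.27 lower in BT474-Var4 than in BT474-Var1 (adjusted p = 0.027) and passed in neither comparison with Control. NAMPT, which makes a precursor of NAD, rose in BT474-Var1 by 0.27 (adjusted p = 0.029), and its dimmer probes gave 0.63 and 0.57 there. In BT474-Var4 the 3 NAMPT probes did not share a sign, at 0.22, 0.14 and -0.25. For BT474-Var4 minus BT474-Var1 the counted NAMPT probe gave -0.06 (adjusted p = 0.48 by limma). Its dimmer probes gave -0.49 and -0.82 (adjusted p = 0.0095 and 0.0020), so the count between the variants depends on the probe chosen.

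Part of these passes rest on few arrays. CIART could not be fitted with the filter asked of every array, and nothing is read from its passes in BT474-Var1 or between the variants. DBP, HLF and TIMELESS in BT474-Var1 and HLF in BT474-Var4 passed the adjusted p under every alternative that kept both arrays of each compared population. All alternatives reuse the same arrays and are no independent test of these genes. DBP in BT474-Var4 missed it on leaving out any Control or BT474-Var4 array (adjusted p up to 0.11 over its alternatives), and TIMELESS in BT474-Var4 on leaving out either Control array (up to 0.078). In BT474-Var1, GSK3B missed it without Control array B (up to 0.069), TEF without either Control array or BT474-Var1 array B (up to 0.076), and RORA, NAMPT and TIPIN without any single array (up to 0.17, 0.15 and 0.15). Between the variants DBP passed under every alternative that kept both arrays of each variant, and RORA missed it with no filter on dim probes alone (0.060). TEF missed it when only the compared populations were fitted and with the one-way analysis of variance, among others. GSK3B missed it with no filter on dim probes, among others. WEE1 missed it without either Control array, either BT474-Var4 array or BT474-Var1 array A (up to 0.14), and HLF without BT474-Var4 array B or either BT474-Var1 array (up to 0.087).

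**Figure D4:**
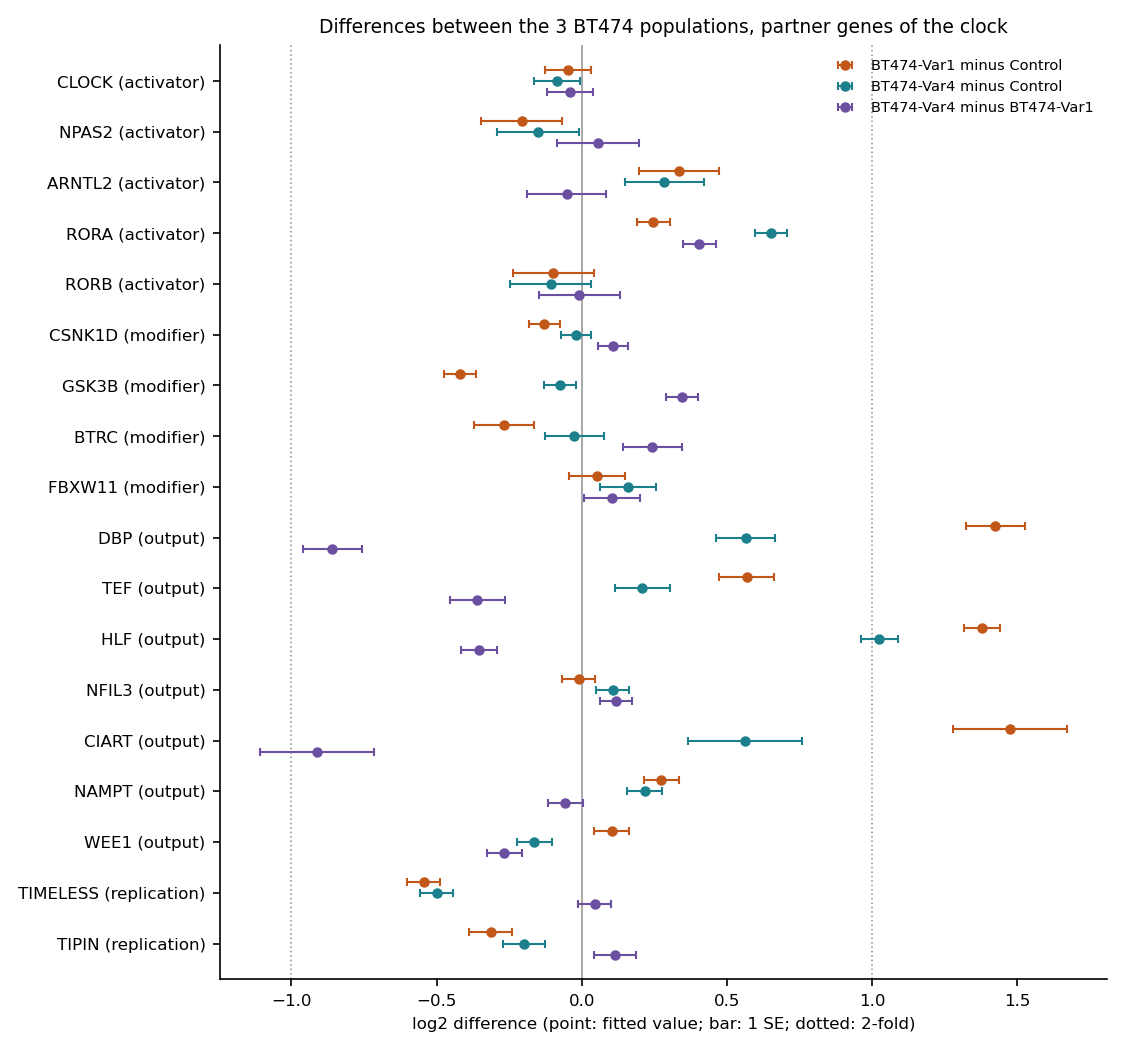
Fitted log2 differences between the 3 populations for the 18 tested partner genes of the clock, by role, with bars of 1 SE and dotted lines at 2-fold. DBP, HLF and CIART lie past 2-fold in BT474-Var1, HLF lies at it in BT474-Var4, and CLOCK, NPAS2 and RORB stay near 0.

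A list of 10 genes induced by the hypoxia-inducible factors was read beside BHLHE40. All 10 were called higher in BT474-Var1 than in Control, with a median of 1.82 log2 units, beside 2.78% of all tested probes. All 10 were also called lower in BT474-Var4 than in BT474-Var1, with a median of -1.84, beside 4.60% of all. The list was chosen with earlier results of these data known, so nothing is read from these shares. CA9 passed the filter on dim signal only through BT474-Var1. Its difference is a bound, with BT474-Var1 at least 2.63-fold above Control and at least 1.89-fold above BT474-Var4. In BT474-Var4 against Control, 0 of the 10 were called by limma (1 higher and 2 lower at an unadjusted p under 0.05), with a median of -0.04, and only ADM, which encodes adrenomedullin, passed the adjusted p (0.59 log2 units). Examples in BT474-Var1 were NDRG1 at 3.12, VEGFA at 1.91 and BNIP3 at 1.72. In BT474-Var4, BHLHE40 was 0.75 and BHLHE41 2.20 log2 units above Control. The part of hypoxia in the levels of BHLHE40 and BHLHE41 was not tested.

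A list of proliferation genes was read beside TIMELESS. Of 8 such genes (MKI67, TOP2A, CCNB1, CCNA2, CDK1, AURKA, BUB1 and PLK1), 7 fell in each population at an adjusted p under 0.05, all but PLK1, with 0 called at 2-fold by limma (7 lower in BT474-Var1 and 8 in BT474-Var4 at an unadjusted p under 0.05). Of all tested probes, 20.3% and 14.3% were lower at the adjusted p. This list, too, was chosen with earlier results of these data known, and nothing is read from its counts. Over the 8 genes the median was -0.56 in BT474-Var1 and -0.44 in BT474-Var4, beside the -0.04 and -0.08 of all tested probes. The part of cell division in the levels of TIMELESS, TIPIN and the clock genes was not tested.

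The genes with the pattern most like BHLHE41 over the 6 arrays, out of 3947 probes that spanned at least 1 log2 unit, were PGM2L1, IGFBP3, G0S2, CCL17 and GBP3, at Pearson r from 0.996 to 0.998. G0S2 read -6.37 and -6.66 in Control, under the dimmest signal well above background there (-4.26 and -4.51). On BT474-Var4 array B it read -3.80, also under that limit (-3.60). It thus passed the filter only through BT474-Var1, and its r rests in part on values at background. IGFBP3, which encodes a carrier of insulin-like growth factors, read 1.69 and 1.63 in Control, 3.25 and 3.20 in BT474-Var4 and 3.50 and 3.51 in BT474-Var1. The genes most like BHLHE40 were TMEM74B, DDIT4, ADM, MYH7B and FOXD1, at r from 0.996 to 0.999. DDIT4, which encodes an inhibitor of the mTOR pathway, read 2.43 and 2.37 in Control, 2.87 and 2.85 in BT474-Var4 and 4.11 on both BT474-Var1 arrays. ADM, a member of the hypoxia list as well, read 2.88 and 2.90 in Control, 3.52 and 3.45 in BT474-Var4 and 4.87 and 4.92 in BT474-Var1. Both lists were picked for their correlation over 6 points in 3 groups, and r describes the likeness only.

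**Figure D5:**
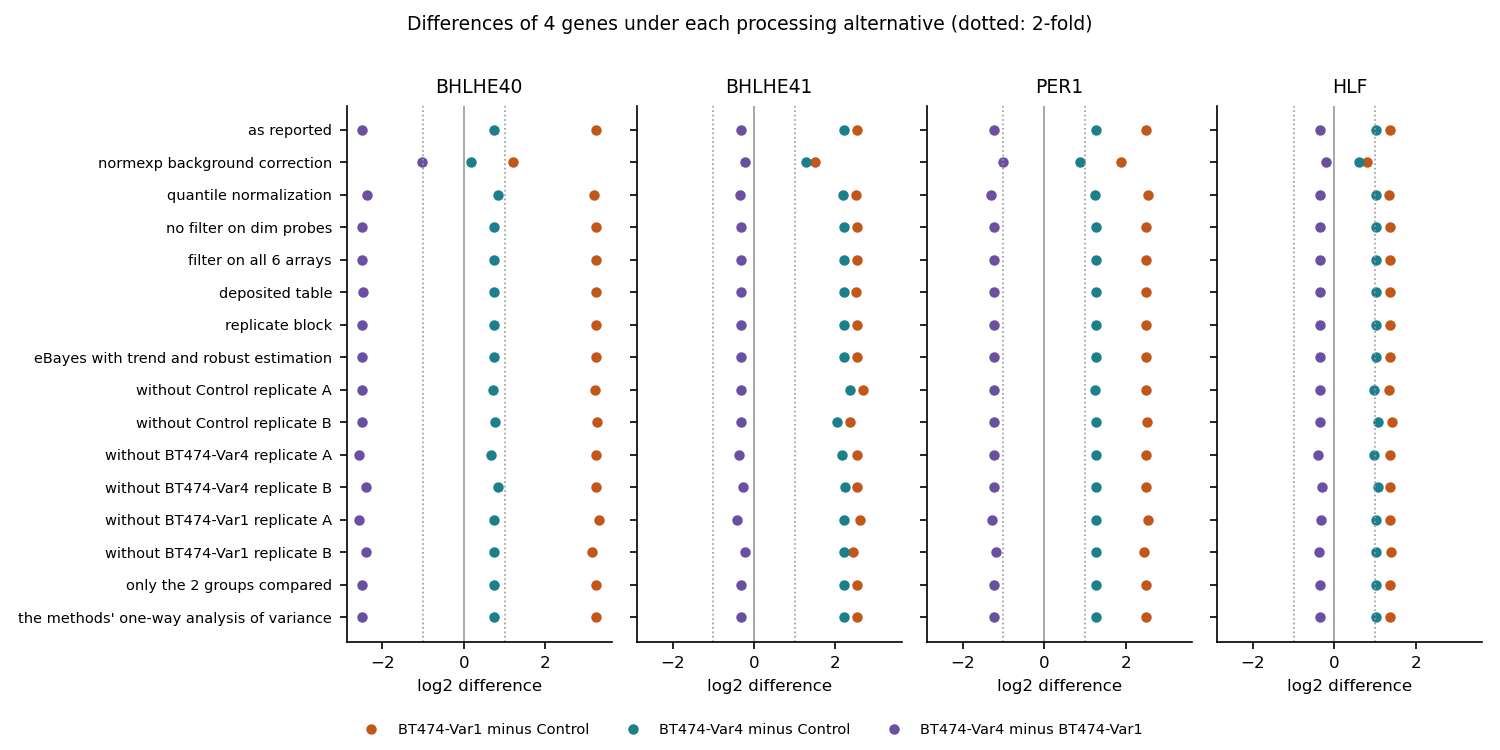
Log2 differences of BHLHE40, BHLHE41, PER1 and HLF between the 3 populations, as reported and under each processing alternative (y axis), with dotted lines at 2-fold. Normexp background correction moved BHLHE40 most, from 3.24 to 1.21 in BT474-Var1, and the other alternatives stayed close to the reported values.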

How the data were processed

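Cy3-labeled RNA of the 3 populations, 2 samples of each, was read on 6 one-color Agilent arrays. The authors scanned and quantified them with Feature Extraction 11.5.1.1, which subtracted the background and detrended each array, and deposited the linear spot intensities together with a table of log2 values shifted to the 75th percentile of each array in GeneSpring. Probe positions are on hg19.

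Here the processed intensities were log2-transformed, spots flagged as outliers (63 to 128 an array) were left out, the spots of a probe were averaged and the array's 75th percentile over non-control probes was subtracted. The deposited log2 table differed from these values by at most 0.00716 per array (median absolute difference). The 31858 probes past the filter on dim signal were tested with limma 3.58.1 in R 4.3.3, with a mean per population over all 6 arrays, moderated variances (3 residual and 1.53 prior degrees of freedom) and Benjamini-Hochberg adjustment. Precision is limited by having 2 arrays a population. Where both arrays of a population were below background, a fold is given as a bound, with that population raised to the dimmest signal well above background on each array. Promoters and motifs came from RefSeq (GRCh38.p14) and were not joined to the hg19 probe positions.

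The clock and DEC genes, the lists of partner, hypoxia and proliferation genes and the tests were chosen with earlier results of these data known. Of the partner genes, 2 are not reported here and are not in any count of the list. Named genes were all members, the partner genes, and for BHLHE40 and BHLHE41 the 5 genes of highest Pearson r. As alternatives, the background was corrected by normexp (offset 50), arrays were quantile normalized, the filter was dropped or asked of all 6 arrays, and the authors' table was used in place of the intensities. The fit was also run with the letters A and B as a block, with a trend and robust eBayes, without each array in turn, on the compared populations alone, as the one-way analysis of variance of the methods, without a minimum fold, and on the mean over a gene's probes.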

Additional observations from a re-analysis of the deposited data

How the results depend on the processing

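The member probes called in BT474-Var1 against Control were 3 as reported and 9 with no minimum fold. In BT474-Var4 against Control they were 2 as reported, 1 with normexp background correction, where PER1 fell under 2-fold, and 7 with no minimum fold. Between the variants they were 2, and 5 with no minimum fold. Leaving out BT474-Var1 array B put the NR1D2 probe A_33_P3270429 past 2-fold as well. Its difference was then 1.04 log2 units for BT474-Var1 minus Control and -1.05 for BT474-Var4 minus BT474-Var1. For the partner genes in BT474-Var1 against Control, the 3 calls became 0 with normexp background correction and 9 with no minimum fold. They became 2 with the filter asked of all 6 arrays, where CIART could not be fitted. In BT474-Var4 against Control the 1 call, HLF, became 0 with normexp background correction and 4 with no minimum fold, and leaving out single arrays gave 0 to 1, 0 without Control array A or BT474-Var4 array A. Between the variants, the partner calls were 0, and 7 with no minimum fold.

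The letters A and B did not pair the arrays (correlation of the A minus B differences between populations -0.01, 0.05 and -0.02), and with the replicate block the member calls were 3, 2 and 2 and the partner calls 3, 1 and 0, as without it. No called difference changed sign under any alternative. Under quantile normalization the median change in a tested probe's difference was -0.04, 0.03 and 0.04 log2 units in the 3 comparisons. The signs of the 14 member probes held under all alternatives for 14 in BT474-Var1 against Control and for 11 in BT474-Var4 against Control. The low intensity of BHLHE40, NR1D1, PER3 and CIART limits how large their differences can be said to be, and with 2 arrays a population a small difference cannot be told from the spread.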
